A study of Mus musculus with 8 samples.

Results

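The genes described here are 9 transcripts of B lymphocytes measured in libraries of sorted regulatory T (Treg) cells: Ms4a1, Cd79a, Cd79b, Pax5, Ebf1, Cr2, Fcer2a, Cd22 and Blk. They are 9 of the 52459 genes listed by symbol, and all 9 had a mean of at least 10 normalized counts over the 8 libraries, as did 15419 genes in all. The 9 genes were chosen for their levels in these same libraries, to gauge how much B cell RNA each library held. Their values are therefore given as a description, with standard errors and without tests.

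B cells are lymphocytes that carry an immunoglobulin on their surface as antigen receptor. The receptor signals through the Cd79a and Cd79b chains and nearby Src family kinases such as Blk. Cd22, Cr2 and Fcer2a are co-receptors or receptors that tune the response of the mature cell, Ms4a1 is the surface protein CD20, and the transcription factors Ebf1 and Pax5 set up and keep the B cell programme. Spleen and lymph nodes, from which the Treg cells were sorted, are rich in B cells, whereas T cells do not make most of these transcripts at a high level.

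RNA was sequenced in 8 libraries of Treg cells from C57BL/6 mice, 2 for each combination of genotype and stimulation. WT cells were sorted as CD4+ CD25hi YFPcre- and Stim1/2-deficient cells as CD4+ CD25hi YFPcre+ from spleen and lymph nodes of healthy female mice, several pooled per sample, that were heterozygous for Foxp3-YFPcre and carried floxed alleles of Stim1 and Stim2 (Stim1 fl/fl Stim2 fl/fl). Both genotypes thus shared the floxed alleles and came from mosaic females, and Cre was driven from the Foxp3 locus, so that genotype cannot be told apart from expression of the Foxp3-YFPcre allele or from the sort gate. Cells were analysed unstimulated or after 16 h with plate-bound anti-CD3 and anti-CD28 (1 µg/ml). The unstimulated libraries were run in a different lane from the stimulated libraries, so that stimulation and lane cannot be told apart. The labels number the unstimulated WT libraries 3 and 4 and those of every other group 1 and 2. Nothing states whether equal numbers mark a shared pool or day, and p-values measure only the spread between these libraries.

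Levels are given in normalized counts, the deposited unit, which is the number of reads on a gene over the size factor of its library. The libraries held 11851853 to 16306540 reads on genes, with 0.759 to 1.48 normalized counts per read. The T cell and Treg label was checked against its markers, which were present in every library: Cd3e, a chain of the T cell receptor complex, had 2508 to 3424 normalized counts, Cd4 4496 to 10760, Foxp3, the defining Treg transcription factor, 4258 to 11918, and Il2ra (CD25) 6821 to 50119. In unstimulated cells Stim1 was higher in the labelled libraries, against the label, with 1538 and 1868 normalized counts compared with 1139 and 1377 in WT. Stim2 had 906 and 908 in unstimulated WT and 904 and 744 in unstimulated labelled libraries, and after stimulation Stim1 had 645 and 673 in WT and 552 and 642 in labelled libraries. Counts per gene do not resolve a deleted exon. Each library is therefore called by its label only.

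Promoter windows of 250 bases before an annotated transcript start were available for 6 of the 9 genes, with 9 windows in all (RefSeq, build GRCm38.p6). Some of these starts are internal to the gene, as those of Cd22 and Cr2 are. They were searched on both strands for letters known as binding motifs of B lineage factors: the EBF1 core CCCNNGGG, the longer EBF1 palindrome, which is that core with a T before it and an A after it, the octamer ATGCAAAT, the E-box CAGGTG bound by E2A, and the core GAGGAA bound by PU.1. The windows of Cd22 and Cd79a are shown because they held the most matches of different kinds, with the matches to the palindrome, the E-box and the PU.1 core in capitals.
Cd22, chr7:30879029-30879278, minus strand: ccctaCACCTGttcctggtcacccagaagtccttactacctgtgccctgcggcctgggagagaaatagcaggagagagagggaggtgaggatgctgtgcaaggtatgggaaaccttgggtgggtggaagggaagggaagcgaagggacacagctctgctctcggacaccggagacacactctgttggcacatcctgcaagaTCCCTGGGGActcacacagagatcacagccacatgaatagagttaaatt
Cd79a, chr7:24897247-24897496, plus strand: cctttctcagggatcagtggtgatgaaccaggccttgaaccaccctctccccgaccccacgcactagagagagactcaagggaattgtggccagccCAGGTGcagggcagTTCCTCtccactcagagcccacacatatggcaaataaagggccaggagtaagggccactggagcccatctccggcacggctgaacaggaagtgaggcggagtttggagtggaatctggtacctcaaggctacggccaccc
The EBF1 palindrome of Cd22 began at -49 from this internal start and its E-box, read on the other strand, at -245 (counted back from -1, the base before the start), while Cd79a held an E-box at -154 and the PU.1 core, also on the other strand, at -140. Of all 32851 promoter windows, 0.779% held the EBF1 palindrome, 11.8% the EBF1 core, 1.6% the octamer, 17.2% the E-box and 23.3% the PU.1 core. Among the other windows, the E-box was at -88 in Cr2 and at -244 and -99 in a window of Fcer2a, the PU.1 core was at -130 in a window of Ebf1, and no motif was found in the window of Pax5. These matches describe letters and are not evidence of binding. On the same build, Cd79a lies on chromosome 7 from 24897497 to 24901858, Cd22 on chromosome 7 from 30865404 to 30880342, Cd79b on chromosome 11 from 106311341 to 106314562, Ebf1 on chromosome 11 from 44618100 to 45008096, Pax5 on chromosome 4 from 44524748 to 44710694, Cr2 on chromosome 1 from 195136811 to 195176880, Fcer2a on chromosome 8 from 3680280 to 3694174 and Blk on chromosome 14 from 63372837 to 63417187.

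Ms4a1, which encodes CD20 and lies on chromosome 19 from 11249679 to 11266149 (GRCm38.p6), had 24.8 and 31.0 normalized counts in the unstimulated WT libraries 3 and 4. In the unstimulated libraries labelled Stim1/2-deficient it had 699 in replicate 1 and 148 in replicate 2. After stimulation it had 263 and 19.0 in WT replicates 1 and 2, and 312 and 61.6 in labelled replicates 1 and 2. The level was thus highest in unstimulated labelled replicate 1 and lowest in stimulated WT replicate 2, a 36.8-fold range, and in both stimulated groups replicate 1 was above replicate 2. Cr2, the complement receptor CD21, had 35.6 and 39.9 normalized counts in the unstimulated WT libraries and 606 and 176 in unstimulated labelled libraries. After stimulation Cr2 had 63.1 and 38.0 in WT and 67.5 and 49.8 in labelled libraries. Unlike Ms4a1, Cr2 was within 1.66-fold between the stimulated WT replicates and within 1.36-fold between the stimulated labelled replicates, so that its high values were those of the unstimulated labelled libraries. Fcer2a, the low-affinity IgE receptor CD23, had 25.9 and 13.3 normalized counts in unstimulated WT and 179 and 38.7 in unstimulated labelled libraries. After stimulation it had 120.0 and 21.3 in WT and 242 and 24.5 in labelled libraries, which made Fcer2a the single member highest in stimulated labelled replicate 1. The annotated span of Fcer2a overlaps the gene Trappc5, and without stated strand use reads in the shared part cannot be assigned with certainty. Cd22, an inhibitory lectin of the B cell receptor complex, had 109 and 67.95 normalized counts in unstimulated WT and 392.2 and 78.8 in unstimulated labelled libraries. Its stimulated values were 129 and 47.1 in WT and 199 and 42.2 in labelled libraries. Labelled replicate 2 of the unstimulated cells lay between the WT libraries for Cd22, and the genotypes overlapped.

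Cd79a and Cd79b encode the paired signalling chains of the B cell receptor. Cd79a had 8.63 and 13.3 normalized counts in the unstimulated WT libraries, and 95.4 and 40.1 in unstimulated labelled libraries. After stimulation it had 17.9 and 2.28 in WT and 42.1 and 32.1 in labelled libraries, the single member with both stimulated labelled libraries above both WT libraries. Cd79b had 88.5 and 81.25 normalized counts in unstimulated WT and 266 and 52.1 in unstimulated labelled libraries. After stimulation Cd79b had 108.3 and 36.45 in WT and 184 and 38.8 in labelled libraries. Labelled replicate 2 of the unstimulated cells lay below both WT libraries for Cd79b, whereas labelled replicate 1 lay above them. Blk, a Src family kinase, had 6.47 and 14.8 normalized counts in unstimulated WT and 75.5 and 13.4 in unstimulated labelled libraries. Its stimulated values were 28.8 and 6.07 in WT and 31.0 and 1.69 in labelled libraries, the last of which is 2 reads.

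Pax5, the factor that maintains B cell identity, had 15.1 and 31.0 normalized counts in unstimulated WT and 590.4 and 109.5 in unstimulated labelled libraries. After stimulation Pax5 had 199 and 14.4 in WT and 296 and 27.02 in labelled libraries. Its order over the libraries was that of Ms4a1 at the top, with unstimulated labelled replicate 1 first, followed by the stimulated replicate 1 of either genotype. Ebf1, which specifies the lineage, had 22.7 and 62.0 normalized counts in unstimulated WT and 509.6 and 167 in unstimulated labelled libraries. After stimulation Ebf1 had 83.4 and 15.95 in WT and 135 and 35.5 in labelled libraries. For Ebf1 both unstimulated labelled libraries were above all 4 stimulated libraries.

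**Figure D1:**
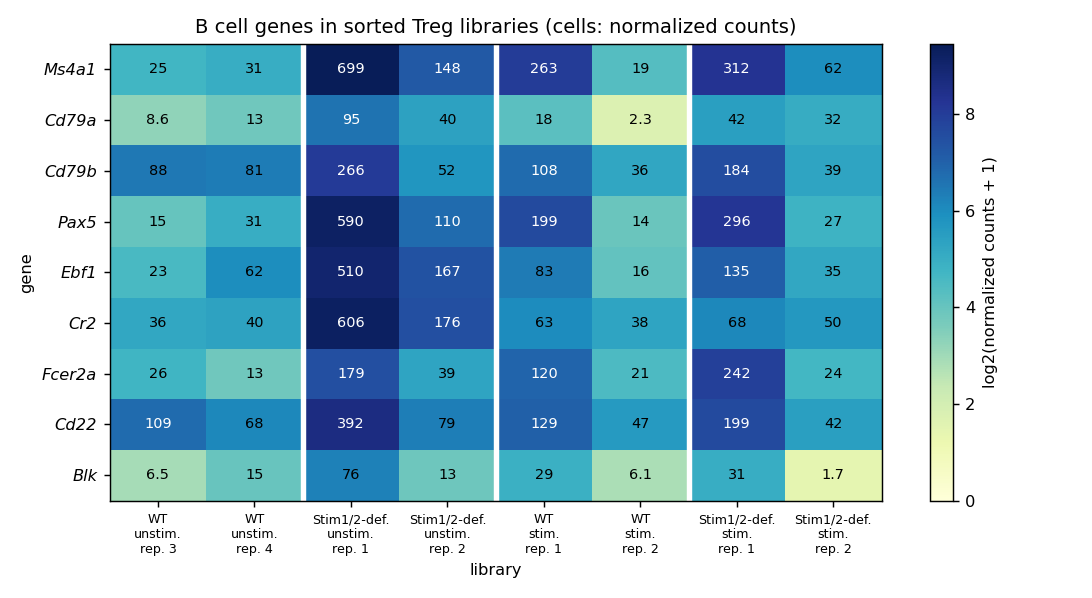
Normalized counts of the 9 B cell genes (rows) in each of the 8 libraries (columns, by group and replicate number), printed in each cell and shaded by log2(normalized counts + 1). The column of unstimulated Stim1/2-deficient replicate 1 is the darkest for every gene but Fcer2a, and the replicate 1 columns of stimulated cells are darker than the replicate 2 columns.

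Summed over the 9 genes, the unstimulated WT libraries had 337 and 355 normalized counts and the unstimulated labelled libraries 3414 and 824. The stimulated WT libraries had 1012 and 200.5, and the stimulated labelled libraries 1509 and 313. As a rate per 1000000 reads on genes, with 95% Wilson intervals that cover counting error only, WT replicates 3 and 4 held 19.1 (17.1 to 21.4) and 20.25 (17.8 to 23.0), and unstimulated labelled replicates 1 and 2 held 219 (212 to 227) and 49.2 (45.4 to 53.2). Stimulated WT replicates 1 and 2 held 83.6 (79.2 to 88.2) and 16.2 (14.4 to 18.3), and stimulated labelled replicates 1 and 2 held 121 (115 to 126) and 25.8 (23.3 to 28.5). The 3 groups numbered 1 and 2 thus each held a library several times richer in B cell reads than its partner: replicate 1 exceeded replicate 2 by 4.14-fold in unstimulated labelled cells, 5.05-fold in stimulated WT cells and 4.82-fold in stimulated labelled cells. The intervals of the unstimulated WT libraries overlapped. In bulk RNA, fewer B cells and less of these transcripts per cell cannot be told apart, and no library of B cells was at hand to turn these rates into a share of cells.

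Which libraries carried these transcripts bears first on the comparison of genotypes in unstimulated cells. The mean sum was 2119 ± 1832 normalized counts (SD, n = 2) in labelled and 346 ± 12.6 in WT libraries, a 6.13-fold difference, or 2.38-fold without labelled replicate 1 and 9.88-fold without labelled replicate 2. On the log2 scale the ratio of the mean sums was 2.62, and the SD of the log2 sums within groups was 1.03. For 6 of the 9 genes the labelled pair stood wholly above the WT pair, the exceptions being Cd79b, Cd22 and Blk. This was so for 26.5% of all 15419 tested genes. Fitted log2 fold changes of labelled over WT cells were above 0 for all 9 genes, with a median of 2.42 against -0.01 over all tested genes. They were 3.49 (standard error 1.13) for Ms4a1, 3.49 (standard error 1.30) for Pax5, 3.08 (standard error 0.54) for Cr2, 2.92 (standard error 0.88) for Ebf1 and 2.42 (standard error 0.82) for Cd79a. Those of Cd79b, 0.47 (standard error 0.85), and Cd22, 1.02 (standard error 0.84), were the smallest, and without labelled replicate 1 they became -0.69 and -0.13. Between the largest and smallest stood Fcer2a at 2.11 and Blk at 1.61. The genes were chosen on these values, so the counts are a description and not support.

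In stimulated cells the sum was 911 ± 845 normalized counts (SD, n = 2) in labelled and 606 ± 574 in WT libraries, a 1.502-fold difference. The ratio of the mean sums was 0.59 on the log2 scale, smaller than the SD of the log2 sums within groups, 1.63. The fold was 0.516 with labelled replicate 1 left out and 0.900 with WT replicate 2 left out, but 2.49 with labelled replicate 2 and 4.54 with WT replicate 1 left out, so that its direction rests on which library is kept. The labelled pair stood wholly above the WT pair for Cd79a alone among the 9 genes, against 24.3% of all tested genes. Fitted log2 fold changes ranged from -0.65 for Blk to 2.26 for Cd79a with a median of 0.60, against 0.02 over all tested genes. With WT replicate 2 left out this median was -0.48, and with labelled replicate 1 left out it was -0.68.

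Across the stimulated libraries the replicate number separated these genes more clearly than genotype did. Both libraries numbered 1 lay above both libraries numbered 2 for 8 of the 9 genes, all but Cd79a, while 14.3% of all tested genes showed that order. For Ms4a1 the libraries numbered 1 had 263 and 312 normalized counts, and those numbered 2 had 19.0 and 61.6. For Pax5 they had 199 and 296 against 14.4 and 27.02. The labelled library exceeded the WT library of the same number for all 9 genes in replicate 1 and for 7 of 9 in replicate 2, where Cd22 and Blk were lower.

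Values before and after stimulation, which cannot be told apart from the lane, moved in different ways in the genotypes. In WT cells the mean of 6 of the 9 genes was higher after stimulation, with 5.06-fold for Ms4a1, 4.62-fold for Pax5 and 3.60-fold for Fcer2a, each carried by WT replicate 1. In labelled cells the mean of 8 of the 9 genes was lower, down to 0.15 of the unstimulated level for Cr2 and 0.25 for Ebf1, while Fcer2a stood at 1.22 times its unstimulated level. This rests on unstimulated labelled replicate 1: against replicate 2 alone the stimulated mean was lower for 3 of the 9 genes, Cd79a, Ebf1 and Cr2, and Cr2 stood at 0.333. The fitted genotype difference of stimulated cells minus that of unstimulated cells lay below 0 for all 9 genes, with a median of -2.03 on the log2 scale. With a library left out this median ran from -3.18 (without stimulated WT replicate 2) to -0.47 (without stimulated labelled replicate 2).

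The make-up of the B cell reads differed between libraries. Cd22 and Cd79b were the leading genes in unstimulated WT libraries, where Cd22 took 32.4% and 19.2% and Cd79b 26.3% and 22.9% of the 312 and 240 reads on the 9 genes. In the unstimulated labelled libraries, with 3256 and 617 such reads, Cd22 took 11.5% and 9.56%, and Ms4a1 20.5% and 18.0%. In the library with the fewest normalized counts of the 9, stimulated WT replicate 2, Cd22 took 23.5% of 264 reads and Ms4a1 9.47%. The libraries poor in B cell reads in WT cells thus held relatively more Cd22 and less Ms4a1, whereas stimulated labelled replicate 2, with 371 reads, held 13.5% Cd22 and 19.7% Ms4a1.

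**Figure D2:**
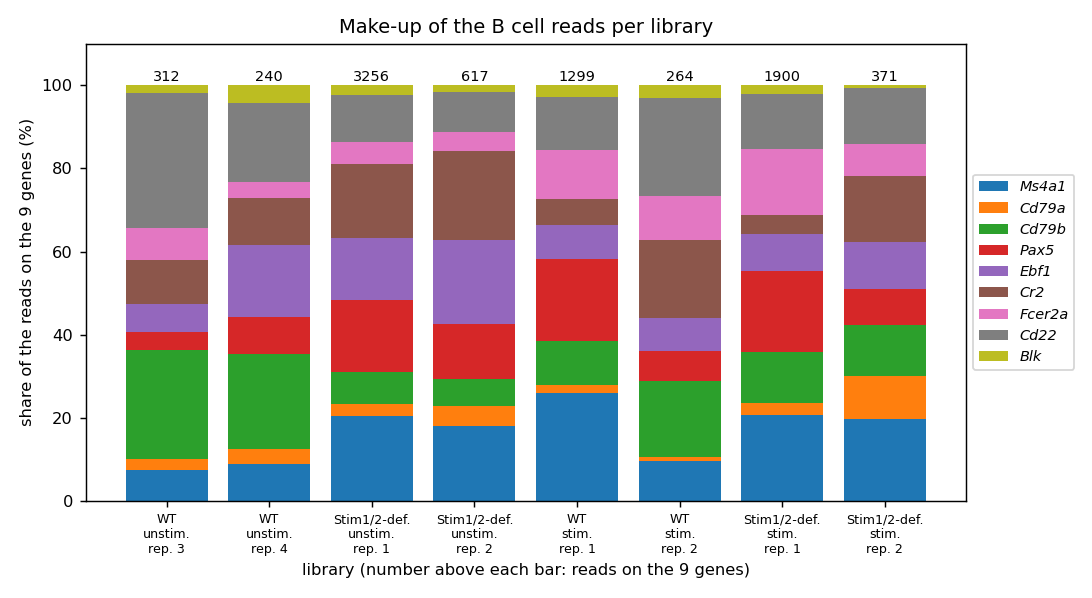
Share (%) of each of the 9 genes in the reads that fell on them, as stacked bars per library, with the number of reads above each bar. Cd22 (grey) and Cd79b (green) take more of the bar in WT libraries with few reads, and Cr2 (brown) is thinnest in the stimulated replicate 1 libraries.

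Cr2 and Fcer2a, which are set at different relative levels in marginal zone and follicular B cells, were compared as a share of their joint reads. Cr2 made up 57.9% and 75% in the unstimulated WT libraries, from 33 and 27 reads of Cr2 against 24 and 9 of Fcer2a. It made up 77.2% (95% Wilson interval 74.0 to 80.0) and 82.0% (75.3 to 87.2) in unstimulated labelled libraries. In the stimulated libraries numbered 1 it made up 34.5% (28.7 to 40.8) in WT and 21.8% (18.0 to 26.2) in labelled cells, and in those numbered 2 it made up 64.1% and 67.0%. The stimulated libraries numbered 1 therefore held more Fcer2a than Cr2 reads and the remaining 6 libraries more Cr2 than Fcer2a reads, and the intervals of the share did not overlap between the stimulated libraries numbered 1 and the unstimulated labelled libraries.

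Per kilobase of exon, which allows genes to be ranked against each other, the mean levels over the 8 libraries were 77.2 normalized counts per kb for Ms4a1, 74.8 for Cd79b, 46.8 for Pax5, 36.5 for Fcer2a, 30.8 for Cd22, 21.6 for Cd79a, 18.3 for Cr2, 13.2 for Ebf1 and 8.97 for Blk. This order was not the same in each library. Ms4a1 was above Cd79b in 3 of 8 libraries, Pax5 above Fcer2a in 4, Fcer2a above Cd22 in 3 and Ebf1 above Blk in 5, while Cd79b was above Pax5 in all 8. Neighbours in this order other than Cd79b and Pax5 therefore changed places between libraries.

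Further B cell genes were examined to see whether genes outside the 9 followed the same libraries. Of 27 such genes in 3 lists (surface molecules and co-receptors, receptor signalling, transcription factors), 23 were highest in unstimulated labelled replicate 1, and 20 had both stimulated libraries numbered 1 above both numbered 2. The latter order held for 14.3% of all tested genes, while the share highest in unstimulated labelled replicate 1 was not computed over all genes. In unstimulated cells 24 of the 27 had a log2 fold change above 0, with a median of 1.5, and 17 had the labelled pair wholly above the WT pair, as did 26.5% of all tested genes. The median was 0.64 with labelled replicate 1 left out and 2.36 with labelled replicate 2 left out. It is the same with the 3 genes that had at most 3 reads in either WT library (Fcrla, Fcgr2b and Spi1) set to their lower bound. Their log2 fold changes (4.02, 3.52 and 2.74) lay above the median, which therefore does not show how far they depend on few reads. In the limma test, 1 of the 27 was called higher and 0 lower in labelled cells, where 1.38% of all tested genes were called higher and 3.35% lower. At an unadjusted p under 0.05 and over 1.5-fold, 11 of the 27 were higher and 1 was lower, against 1338 and 1705 of all 15419 tested genes. The call was lost with edgeR, with WT replicate 3, WT replicate 4 or labelled replicate 1 left out (0 genes called higher in each), and 4 genes were called with labelled replicate 2 left out and 8 with DESeq2.

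In the surface list, 7 of 10 genes had both unstimulated labelled libraries above both WT libraries, as did 26.5% of all tested genes. Cd180, a Toll-like receptor relative of B cells, had 23.7 and 32.5 normalized counts in WT and 632 and 138 in labelled libraries, with a limma adjusted p of 0.0896. Tnfrsf13b, the receptor TACI, stood the other way, with 956 and 753 in WT and 546 and 345 in labelled libraries (limma adjusted p = 0.113). In the signalling list, Bank1, an adaptor of the B cell receptor, had 44.2 and 94.5 in WT and 1211 and 228 in labelled libraries, and Dapp1, the most abundant gene of that list, had 2487 and 2578 against 1668 and 1900. Among the transcription factors, Bcl11a had 6.47 and 2.95 against 327 and 57.4 normalized counts, whereas the groups overlapped for Irf8 and Pou2f2, the most abundant of that list.

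After stimulation 0 of the 27 genes were called in either direction by limma, edgeR or DESeq2, and 0 had an unadjusted limma p under 0.05 with a change over 1.5-fold, while 0.162% of all tested genes were called higher and 0.11% lower. Their median log2 fold change was 0.30 and changed sign with the library left out, being -0.40 with WT replicate 2 left out and 1.56 with labelled replicate 2 left out. With labelled replicate 1 left out Hhex was called lower, and a fit that takes the replicate number as a block called Tnfrsf13c, Blnk and Bank1 higher. The difference between the genotype effects in stimulated and unstimulated cells was tested directly as an interaction. It called 0 of the 27 genes and 0% of all tested genes, with 0 of the 27 higher and 3 lower at an unadjusted p under 0.05 and over 1.5-fold (704 and 543 of all 15419 tested genes), and edgeR and DESeq2 also called 0 of the 27. The median interaction of the 27 genes was -1.57 on the log2 scale, or -0.40 without unstimulated labelled replicate 1, -0.25 without stimulated WT replicate 1, -0.42 without stimulated labelled replicate 2 and -2.91 to -2.51 with one of the remaining libraries numbered 1 or 2 left out.

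**Figure D3:**
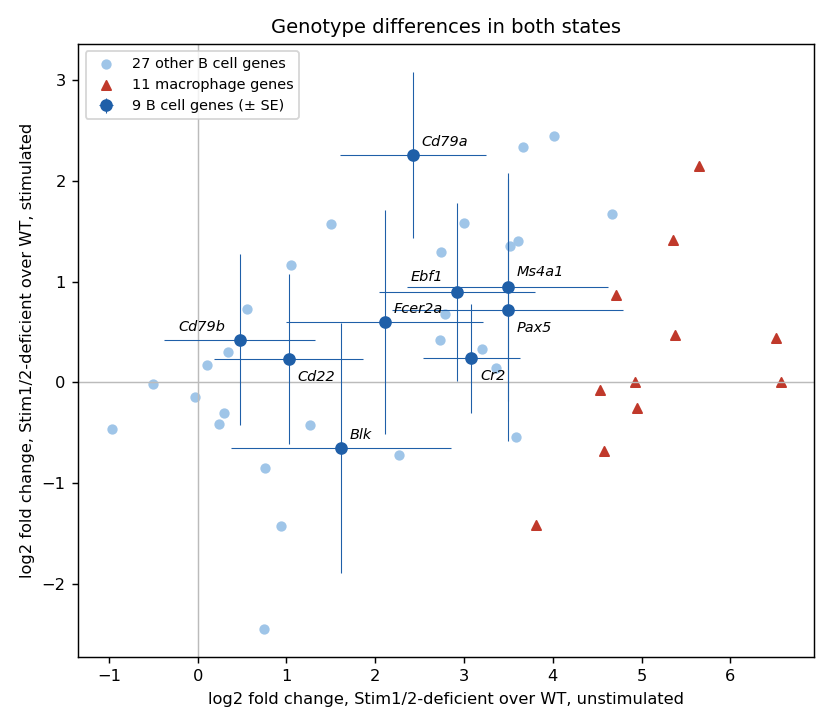
Fitted log2 fold change of libraries labelled Stim1/2-deficient over WT in unstimulated cells (x axis) and stimulated cells (y axis), for the 9 B cell genes (named, bars show standard errors), 27 other B cell genes and 11 macrophage genes. The 9 genes run from 0.47 to 3.49 on the x axis and from -0.65 to 2.26 on the y axis.

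Immunoglobulin transcripts, the most abundant product of B lineage cells, were measured as 13 constant region and joining chain genes. Their sum was 7179 and 7048 normalized counts in unstimulated WT and 28018 and 8192 in unstimulated labelled libraries, and after stimulation 7700 and 5361 in WT and 9163 and 3160 in labelled libraries. Of the 13, 5 were called higher in unstimulated labelled cells, where 1.38% of all tested genes were: Ighg2b, Ighg2c, Ighe, Iglc3 and Jchain. Ighg2c, an IgG heavy chain, had 91.7 and 79.8 normalized counts in WT and 2377 and 861 in labelled libraries, which is 4.05 on the log2 scale (SE 0.72, limma adjusted p = 0.0174). Jchain, which joins IgM and IgA into polymers, had 38.9 and 72.4 in WT and 1784 and 471 in labelled libraries, which is 4.09 on the log2 scale (SE 0.86, limma adjusted p = 0.0302). Ighe was at 0 in both WT libraries and at 126 and 111 in the labelled libraries. With at most 4.76 after stimulation, Ighe reached the mean level required of tested genes only through the unstimulated labelled libraries. The count of 5 called genes is therefore a description and not support. The light chain gene Igkc had 187 and 389 in WT and 5051 and 1492 in labelled unstimulated libraries. Ighm, the IgM heavy chain and the largest of the 13, made up 53.9% of their sum over the 8 libraries and behaved differently. It had 6446 and 5414 normalized counts in unstimulated WT, 11092 and 3279 in unstimulated labelled, 4234 and 4636 in stimulated WT and 3596 and 2147 in stimulated labelled libraries. The sums of the unstimulated WT libraries were thus mostly Ighm, and the summed level hides the larger differences of the genes named above. Constant genes of one locus can share reads, and the counting of such reads is not known.

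MHC class II genes, which do not mark a stage of the B cell lineage, and marker lists of other stages of that lineage were looked at as well. Of 10 MHC class II genes, H2-DMb1 was called higher in unstimulated labelled cells, as were 1.38% of all tested genes. Of the 10, 8 were highest in unstimulated labelled replicate 1, a share that was not computed over all genes. H2-Aa had 440.3 and 462 normalized counts in unstimulated WT, 2134 and 443 in unstimulated labelled, 717 and 304 in stimulated WT and 871 and 157 in stimulated labelled libraries. The 4 marginal zone genes, which include Cd1d1 and Cd9, summed to 783 and 662 normalized counts in unstimulated WT, 1001 and 797 in unstimulated labelled, 294 and 307 in stimulated WT and 296 and 396 in stimulated labelled libraries, so that the stimulated libraries numbered 1 were not the higher ones. Of the early B progenitor genes, Igll1 was at 0 in all 8 libraries, Rag2 was at most 0.76 and Vpreb1 at most 3.04 normalized counts, and the highest, Dntt, reached 19.9 in unstimulated labelled replicate 1 and 17.7 in stimulated labelled replicate 2. Among plasma cell genes, Jchain was called as above, Mzb1 had 1.08 and 1.48 against 51.4 and 20.03 in unstimulated cells, and Tnfrsf17 was at most 5.34. Sdc1 (CD138) did not follow them, with 10.8 and 11.8 against 12.6 and 0 in unstimulated cells and its highest value, 56.6, in stimulated labelled replicate 2, and Derl3 had 18.4 and 22.2 against 28.3 and 8.01. Follicular dendritic cell genes, relevant because those cells also make Cr2, had similar sums of 110 to 134 normalized counts in the 8 libraries. Among them Cxcl13, Clu and Madcam1 were at no more than 2.95 in any library, while Coch had 41.0 to 86.8, Mfge8 16.8 to 59.2 and Enpp2 at most 30.4.

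Transcripts of some other cell types moved with the B cell genes in the unstimulated labelled libraries and those of others did not. All 11 macrophage genes had the labelled pair wholly above the WT pair (26.5% of all tested genes did). Of the 11, 9 were called higher (1.38% of all tested genes were). This list, like the others, was chosen with earlier results of these data known. Some of its genes reached the mean level required of tested genes only through the unstimulated labelled libraries. C1qa, for example, had 78.6 and 10.7 normalized counts there and 0 in both WT libraries. Both counts are therefore a description and not support. The sum of the 11 genes was 142 and 155 normalized counts in WT and 11213 and 1528 in labelled libraries, 42.8-fold. In stimulated cells the macrophage sum was 85.0 and 80.5 in WT and 87.4 and 37.2 in labelled libraries, with C1qa at 0 and Mrc1 at 0 in all 4 libraries, and 0 of the 11 genes had both libraries numbered 1 above both numbered 2 (14.3% of all tested genes did). The macrophage genes therefore shared the high value of unstimulated labelled replicate 1 with the B cell genes and not the high values of the stimulated libraries numbered 1. The 6 CD8 T and NK cell genes had sums of 299 and 250 in unstimulated WT, 843 and 276 in unstimulated labelled, 385 and 202 in stimulated WT and 849 and 258 in stimulated labelled libraries, so that replicate 1 exceeded replicate 2 in each group numbered 1 and 2, and the sum of unstimulated labelled replicate 2 lay between the WT libraries. Of these genes 5 nevertheless had the unstimulated labelled pair wholly above the WT pair. The exception was Cd8b1, which made up 44.6% of the sum. Monocyte genes summed to 2065 and 1956 in unstimulated WT and 1102 and 399 in unstimulated labelled libraries, and gamma delta T cell genes to 255 and 388 against 344 and 163. Ccr2, which was called lower, as were 3.35% of all tested genes, made up 81.8% of the monocyte sum. The labelled pair stood wholly above the WT pair for 4 of the 5 monocyte genes. Among them Lyz2 had 34.5 and 35.45 in WT and 375 and 138 in labelled libraries. That order held for 1 of the 4 gamma delta genes, Trdc, with 41.0 and 63.5 against 217 and 131. Il23r had 213 and 313 against 64.0 and 26.7. The 9 neutrophil genes summed to 256 and 142 in unstimulated WT, 1227 and 545 in unstimulated labelled, 585 and 302 in stimulated WT and 891 and 158 in stimulated labelled libraries. The sum of 11 Treg and T cell identity genes was 109173 and 100607 in unstimulated WT, 52165 and 61136 in unstimulated labelled, 106255 and 126248 in stimulated WT and 81060 and 102068 in stimulated labelled libraries. Of these genes, Ikzf2 and Ctla4 were called lower in unstimulated labelled cells, as were 3.35% of all tested genes. In unstimulated cells 0 of the 11 had a log2 fold change above 0, and the values ran from -1.79 for Ctla4 to -0.07. Ctla4 had 37404 and 35119 normalized counts in unstimulated WT and 6338 and 17333 in unstimulated labelled libraries. Cd3e had 3424 and 3294 against 3042 and 3156, so the fall of the sum was not shared evenly by its genes. The 7 conventional dendritic cell genes summed to 248 and 282 in unstimulated WT and 675 and 231 in unstimulated labelled libraries. Zbtb46 made up 68.2% of their sum over the 8 libraries, and 5 of the 7 had the labelled pair wholly above the WT pair. The 5 plasmacytoid dendritic cell genes summed to 750 and 675 against 1271 and 767, and 3 of the 5 had that order. The part of other cell types in the B cell values was not tested.

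**Figure D4:**
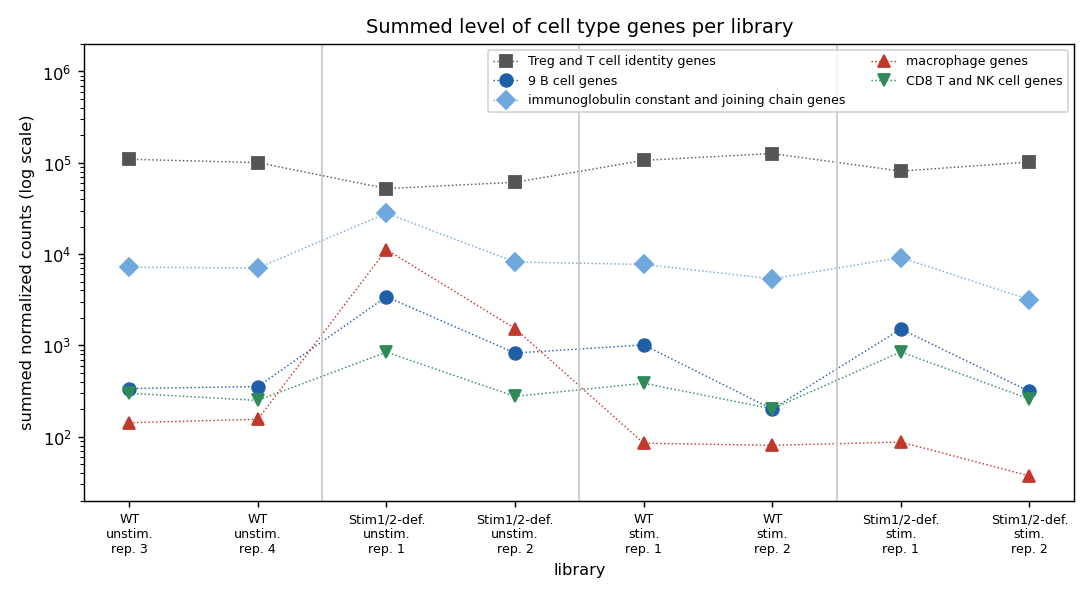
Summed normalized counts (log scale) of 5 gene lists in each of the 8 libraries, with dotted lines to guide the eye. The 9 B cell genes peak in unstimulated Stim1/2-deficient replicate 1 at 3414 and again in the stimulated replicate 1 libraries at 1012 and 1509, whereas the macrophage genes peak in the unstimulated Stim1/2-deficient libraries and stay under 100 after stimulation.

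The genes whose profile was most like that of the 9 were ranked by Pearson's r, over the 8 libraries, between log2(normalized counts + 1) and the mean standardized profile of the 9. The libraries share depth, scaling and groups, so r is a description. The 10 highest of 15410 genes were Marcks (0.981), Gm37305 (0.980), Itgax (0.979), Pla2g7 (0.973), Siglecg (0.972), Klrc2 (0.967), Fcmr (0.967), Iglc1 (0.967), Nfam1 (0.967) and Igkc (0.967). Siglecg, a B cell lectin related to Cd22, and Fcmr, the IgM Fc receptor, are B cell genes, as are the light chain genes Iglc1 and Igkc, whereas Itgax (CD11c) is best known from dendritic cells. Fcmr had 19.4 and 45.8 normalized counts in unstimulated WT, 365 and 82.8 in unstimulated labelled, 79.5 and 7.59 in stimulated WT and 153 and 30.4 in stimulated labelled libraries. Of the 27 further B cell genes, 10 were among the 100 highest, with a median r of 0.838. The 11 macrophage genes had 0 among the 100 highest and a median r of 0.654, and the Treg and T cell identity genes a median of -0.36. Lists of other cell types also came close to the profile, which was not particular to B cell genes. The 3 tested plasmacytoid dendritic cell genes had a median r of 0.871 with 0 among the 100 highest. The 4 tested conventional dendritic cell genes had 0.544 with 2 among them, and the 5 tested CD8 T and NK cell genes 0.774 with 1. Within the 9, r of each gene with the mean of the other 8 ran from 0.784 for Cd79a and 0.789 for Cr2 to 0.967 for Pax5.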

How the data were processed

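Single 50 nt reads of 8 libraries were processed by the authors. Their methods name Bowtie 1.0.0 on NCBIM37, removal of PCR duplicates with Picard, counting with HTSeq and DESeq2, whereas the submitters' processing notes list bcl2fastq 1.8.4, STAR 2.7, DESeq2 and build mm10. More symbols of the table matched RefSeq on GRCm38.p6 (35095) than GENCODE M1 on NCBIM37 (28801), so positions are on GRCm38.p6, and exon lengths are from GENCODE M1. The deposited signal values are reads per gene that the authors divided by a size factor per library. Division by the value of 1 read gave whole reads for 100% of the entries (within 0.006 normalized counts).

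Values were fitted as log2(value + 1) with limma 3.58.1 (trend) in R 4.3.3 for the 15419 genes with a mean of at least 10, in a single model of the 4 groups. Tests were 2-sided, p was adjusted by Benjamini-Hochberg, and genes were called at an adjusted p under 0.05 and over 1.5-fold. On recovered reads edgeR 4.0.16 called 131 genes higher and 353 lower in unstimulated cells and DESeq2 1.42.0 called 511 and 810, against 213 and 517 with limma. The study's methods used DESeq2, and limma was used here because the values were normalized. Other alternatives were pseudocounts of 0.1 and 5, filters on low values, equal totals or upper quartiles, the 4 libraries of a contrast, a replicate block and each library left out. The fits were tested on simulated data. The 9 genes and all lists were chosen with earlier results of these data known. Named genes are the 9, Cd3e, Cd4, Foxp3 and Il2ra, up to 4 of the highest genes of each list, called genes of the B cell lists, the 10 most similar genes, and genes picked after their values were seen (called genes of other lists, Cd180, Bank1, Bcl11a and markers near 0). Values of some single genes are not reported here.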

Additional observations from a re-analysis of the deposited data

How the results depend on the processing

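The count of 27 further B cell genes called higher in unstimulated labelled cells, 1 as reported, was 0 with a pseudocount of 0.1, with every gene above 0, with equal totals and with edgeR. It was 2 on the 4 unstimulated libraries alone, 8 with DESeq2 and 0 to 4 with a library left out, and 1 gene was called lower without labelled replicate 1. In stimulated cells, a replicate block called 3 of them higher instead of 0, and 1 was called lower without labelled replicate 1. The same-numbered stimulated libraries deviated from their group means with r = 0.17 over 15419 genes. They are only 2 pairs, which cannot decide whether the numbers mark pairing, and the main fit left the numbers out. The summed ratio within numbers was 1.49 and 1.56, and the counts of all genes called with a block are given below. The summed level in unstimulated cells kept its direction with equal totals, equal upper quartiles, the median over the 9 genes, Ms4a1 left out and each library left out, with log2 ratios of 1.25 to 3.30 over left-out libraries and the lowest without labelled replicate 1. In stimulated cells these ran from -0.95 (without labelled replicate 1) to 2.18, and the ratio was -0.15 without WT replicate 2. Of 237 fold changes of single members under alternatives, 220 kept their sign and 17 did not, each with a library left out. In unstimulated cells the log2 fold change with a library left out ran from -0.69 to 1.64 for Cd79b and from -0.13 to 2.17 for Cd22, the lowest without labelled replicate 1. In stimulated cells it ran from -0.92 to 2.81 for Ms4a1, -0.68 to 1.53 for Cd79b, -1.13 to 2.56 for Pax5, -0.26 to 2.05 for Ebf1, -0.12 to 0.60 for Cr2, -1.03 to 2.23 for Fcer2a, -0.87 to 1.34 for Cd22 and -2.43 to 1.14 for Blk. There the sign changed without WT replicate 2 for 7 of the genes and without labelled replicate 1 for 6 of them, and that of Blk without WT replicate 1 or labelled replicate 2. Over all genes, equal upper quartiles turned the split in unstimulated cells from 213 higher and 517 lower to 425 and 239 and moved the median of all genes to 0.25. Equal totals gave 239 and 348 with a median of 0.11, and the 4 libraries alone 85 and 255. In stimulated cells DESeq2 gave 238 and 287 in place of 25 and 17. The block, fitted on the 4 stimulated libraries alone, gave 394 and 575, against 121 and 133 on those libraries without a block. Depth limits genes with few reads, such as Blk and Cd79a in WT libraries.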
